A study of Homo sapiens with 15 samples.

Results

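Cells given Nutlin were compared with cells given DMSO while both were held in a double thymidine block without release, across all genes. The libraries were chosen by their labels, 2 with Nutlin and 2 with DMSO, out of 15 in the series. All 15 come from U2OS, an established human osteosarcoma line that carries wild-type p53. Non-released Nutlin cells (n = 2 libraries) had received 2 mM thymidine for 16 h, medium without it for 8 h, and thymidine again for 16 h. Nutlin at 10 µM was added to them 4 h before the time at which other dishes were released. Non-released DMSO cells (n = 2) went through the same block with the vehicle alone. The labels have lost the prefix of the dose unit, taken to be micro, and it is not clear from them whether non-released cells were kept in Nutlin for longer than those 4 h. The other states served for comparison. Released cells, harvested in S-phase 4 h after thymidine was washed out, gave 2 Nutlin and 3 DMSO libraries, and asynchronous cells gave 3 Nutlin and 3 DMSO libraries. Released cells had gone through the same block. Nutlin was at 10 µM in both states as well, added to released cells 4 h before release. How long each state was kept in Nutlin was not compared here, and it may differ. Of 23368 genes in the deposited table, 14257 were expressed highly enough to be tested. Nothing in the labels says that replicates were separate cultures, and the p-values may therefore reflect technical spread alone.

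The transcription factor p53 is kept low by MDM2, a ubiquitin ligase that binds its activation domain and marks it for destruction. Nutlin fills the pocket of MDM2 that holds p53, so that p53 accumulates without damage to DNA and drives genes for cell cycle arrest, death, DNA repair and metabolism, MDM2 among them. Excess thymidine unbalances the deoxynucleotide pools and holds cells near the start of S phase, the point at which DNA replication, the subject of the study, begins.

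The 4 non-released libraries held 15.3 and 20.19 M reads assigned to genes with Nutlin and 18.94 and 23.38 M reads with DMSO, within the 6.05 to 23.38 M reads of all 15. The ribosomal precursor RN45S took 3.7% and 0.6% of the reads with Nutlin and 0.14% and 2.45% with DMSO. Markers of bone and mesenchymal cells summed to 79457 and 79849 normalised reads with Nutlin and to 75326 and 78611 with DMSO. VIM, SPARC, FN1 and COL1A1 were abundant, while TWIST1 stood at 0 and IBSP, BGLAP and SP7 at 1 normalised read or fewer in these 4 libraries. Epithelial markers summed to 13760 and 13979 with Nutlin and to 13563 and 13979 with DMSO, nearly all of it KRT8 and KRT18, and blood markers to 453 and 369 with Nutlin and 363 and 379 with DMSO. No marker on these 3 lists passed the limma test or voom. At an unadjusted p under 0.05 there was 1, where 1186 of the 14257 genes tested were. A library of another state, labelled DMSO asynchronous replicate 3, went against its label, with CDKN1A at 17533.8 normalised reads against 2740.6 to 2772.6 in its group and the keratin KRT19 at 7826.1 against at most 33.9 elsewhere. It was kept out of the fit, which left 14 libraries, and counts with it are given beside the main ones.

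CDKN1A and MDM2, direct p53 targets, checked the Nutlin label. CDKN1A, which encodes the cyclin-dependent kinase inhibitor p21, had 15310.3 and 15847.5 normalised reads in the Nutlin libraries and 5506.0 and 5870.4 in the DMSO libraries. Normalised reads are reads divided by a size factor for each library, recovered from the deposited values. MDM2 had 28290.5 and 29209.4 with Nutlin and 8744.9 and 8555.4 with DMSO. Both genes were high in both Nutlin libraries, and the groups did not overlap. On the deposited log2 scale the Nutlin minus DMSO difference was 1.44 ± 0.13 (SE, n = 2 and 2) for CDKN1A and 1.73 ± 0.11 for MDM2. The Benjamini-Hochberg adjusted p from limma, over all genes tested, was 0.000133 and 1.42e-05.

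Nutlin changed 274 of the 14257 genes, 1.92%, at an adjusted p under 0.05, and 257 of them (1.80% of genes tested) were higher with Nutlin against 17 (0.119%) lower. The higher genes differed by a median of 0.79 on the log2 scale, from 0.36 to 1.99, and 67 of them by at least 1. The lower genes differed by a median of -0.61, and 2 of them by 1 or more. The deposited scale compresses low values. By the ratio of mean normalised reads, 114 of the higher genes and 6 of the lower ones differed by 2-fold or more, and 2 higher genes with under 3 normalised reads with DMSO have no ratio. Over all genes tested the median difference was -0.02. Of the higher genes 250 are protein coding, as are all 17 lower ones. The count depends on which libraries give the spread. With all 15 libraries 131 genes passed (0.916%), 125 higher (0.874%) and 6 lower (0.0420%). With DMSO S-phase replicate 2 also left out, which leaves 13 libraries, 459 passed (3.23%), 399 higher (2.81%) and 60 lower (0.423%). The 4 non-released libraries alone gave 623 (4.51%), 510 higher (3.69%) and 113 lower (0.817%). Voom, which weights recovered reads by their precision, gave 369 (2.59%), 319 higher (2.24%) and 50 lower (0.351%). Leaving out 1 of the 4 gave 125 without Nutlin replicate 1, 81 without Nutlin replicate 2, 92 without DMSO replicate 1 and 101 without DMSO replicate 2. All 274 kept their direction in every one of 15 alternative fits that tested them, and 47 passed in all of these fits.

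**Figure D1:**
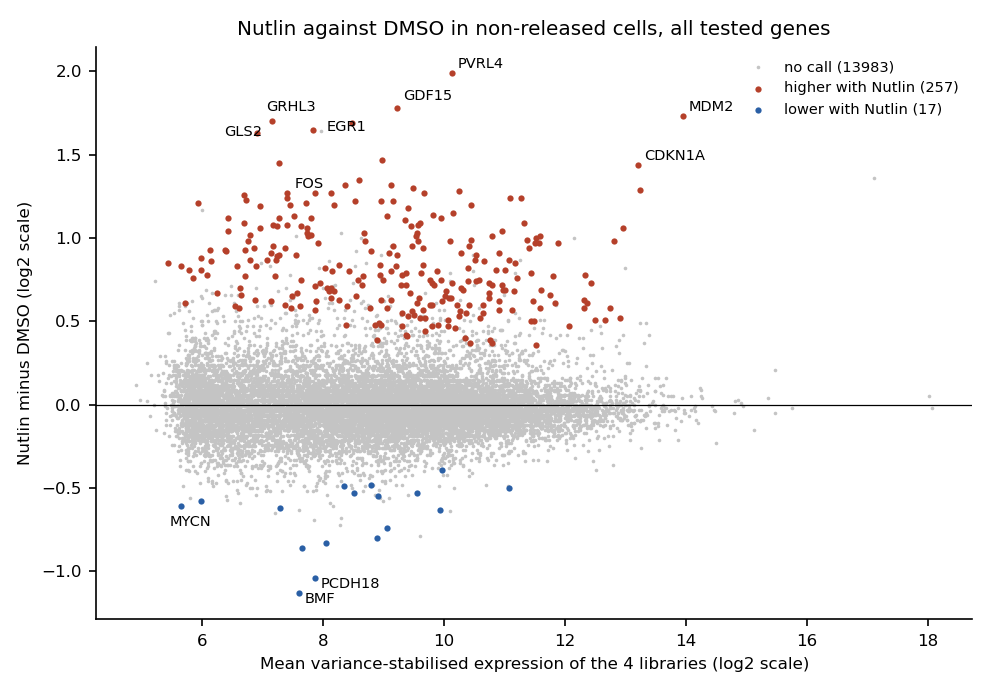
Nutlin minus DMSO difference (y axis, log2 scale) against the mean deposited expression of the 4 non-released libraries (x axis, log2 scale), 1 point per tested gene. The 257 genes called higher (red) reach 1.99 for PVRL4, the 17 called lower (blue) reach -1.13 for BMF, and EGR1, at 1.64, is among the 13983 grey genes that did not pass.

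PVRL4, which encodes the adhesion molecule nectin-4, showed the largest difference of all genes tested on the deposited scale, though not the largest ratio. It had 2038.3 and 2345.4 normalised reads with Nutlin and 468.9 and 552.4 with DMSO, a ratio of means of 4.29 (1.99 ± 0.17 log2, adjusted p = 0.000104). GDF15, a secreted stress cytokine, had 957.1 and 1165.6 with Nutlin and 236.0 and 303.5 with DMSO (1.78 ± 0.18, adjusted p = 0.000229). GRHL3, a transcription factor of epidermal barrier formation, had 231.2 and 178.7 with Nutlin and 29.2 and 35.3 with DMSO, a ratio of 6.36, although its difference on the deposited scale was 1.70 ± 0.20 (adjusted p = 0.000513). In these 3 genes every Nutlin library lay above every DMSO library. SERPINB5, the serpin maspin, rose by 1.65, and CSF1, the macrophage colony-stimulating factor, by 1.47. GPR172B (riboflavin transporter SLC52A1) rose by 1.69 and the diacylglycerol kinase gene DGKA by 1.35. CDH10, a classical cadherin, rose by 1.45 and PCDH17, a protocadherin, by 1.32. The adhesion gene CSMD3, the sulfatase gene SULF2 and TFEC, of the MiT family of transcription factors, each rose by 1.27. The calls of GDF15 (adjusted p = 0.981), GRHL3 (0.139), SERPINB5 (0.525) and SULF2 (0.999) were lost, with CDKN1A (0.597) and MDM2 (0.22), in the fit of all 15 libraries. DGKA reached 0.117 without Nutlin replicate 1 and TFEC 0.0729 without Nutlin replicate 2.

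**Figure D2:**
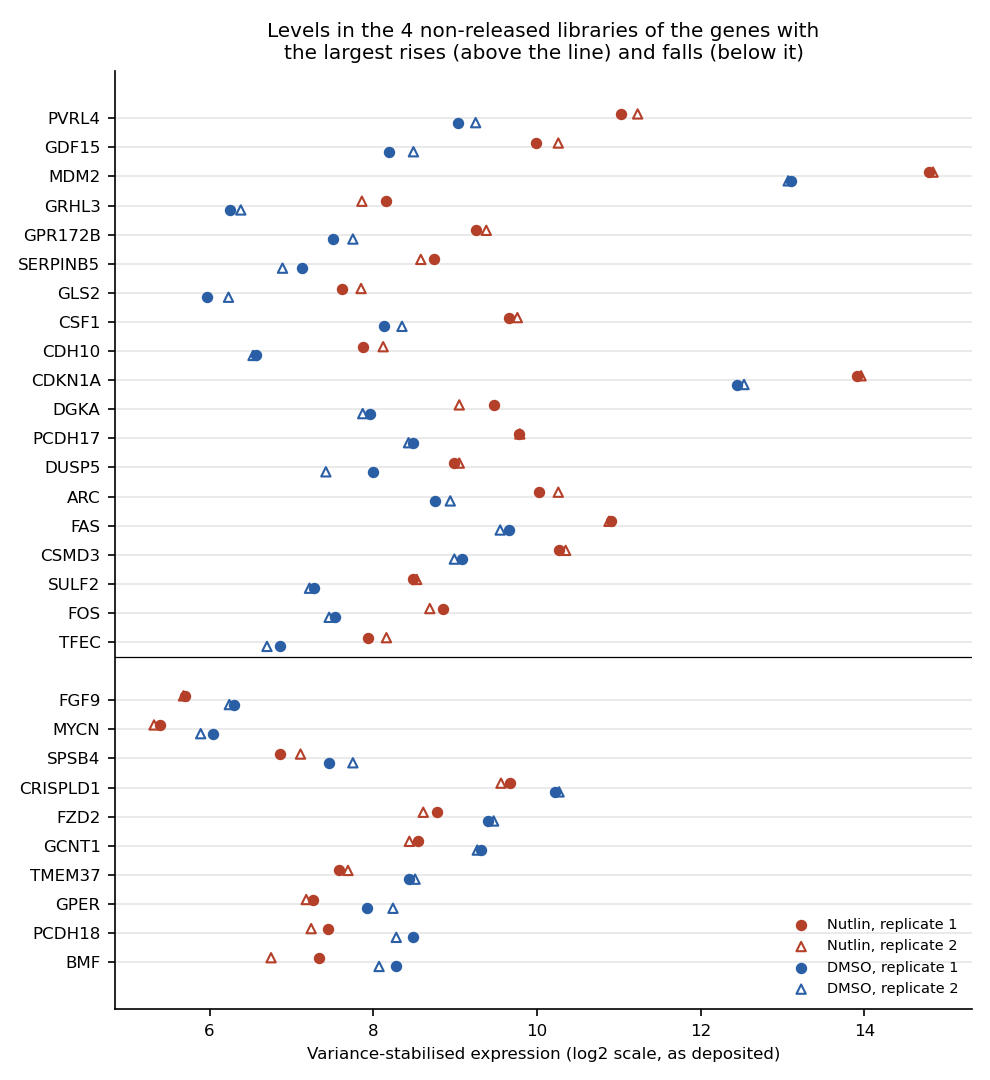
Deposited expression (x axis, log2 scale) in the 4 non-released libraries of 19 of the 20 genes with the largest rises (above the line) and the 10 with the largest falls (below it). Red marks are Nutlin and blue marks DMSO, circles replicate 1 and triangles replicate 2. In each of these genes both Nutlin marks lie on 1 side of both DMSO marks, which their choice among called genes nearly ensures.

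Known p53 targets were called higher more often than genes in general. Of the 257 genes called higher, 80 were on the target lists and 159 on no list. Of 141 distinct targets tested in 5 lists, 80 (56.7%) were called higher, beside the 1.80% of all genes, and none lower in limma or voom. Their median difference was 0.63, against -0.02 over all genes, and 131 were above 0. The lists are well-known targets, gathered with earlier results of these data at hand.

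Of 27 targets that act in arrest or in feedback on p53, 17 were called higher, with a median of 0.73. BTG2, an antiproliferative cofactor of mRNA deadenylation, had 3842.5 and 3643.0 normalised reads with Nutlin and 1533.8 and 1570.6 with DMSO (1.24 ± 0.14, adjusted p = 0.000336). TP53INP1, which promotes p53 phosphorylation and autophagy, had 2866.2 and 2739.9 with Nutlin and 1320.7 and 1348.6 with DMSO (1.04 ± 0.11, adjusted p = 0.00026). ZMAT3, an RNA-binding protein, had 3948.5 and 4055.3 with Nutlin and 2120.3 and 1903.5 with DMSO (0.97 ± 0.10, adjusted p = 0.000229). In these genes, as in all 274 called, the Nutlin and DMSO libraries did not overlap. The call itself nearly ensures this, so it adds no support. PPM1D, the phosphatase that switches off p53 signalling, rose by 0.73, GADD45A by 0.91, PLK3 by 1.08, and the sestrins SESN1 and SESN2, which restrain mTORC1, by 0.90 and 0.81. CCNG1, PLK2, PHLDA3 and E2F7 did not pass, with differences of 0.42, 0.40, 0.43 and 0.46. With all 15 libraries 10 of the 27 passed, and BTG2 (adjusted p = 0.0717), SESN1 (0.267), PPM1D (0.734) and TP53INP1 (0.999) did not. The list kept 12 to 14 calls with 1 of the 4 left out, and GADD45A lost its call without Nutlin replicate 2 (0.0902) and without DMSO replicate 1 (0.0782).

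Of 22 death-related targets 14 were called higher, with a median of 0.69. FAS, a death receptor, had 1847.5 and 1826.3 normalised reads with Nutlin and 751.5 and 691.0 with DMSO (1.28 ± 0.13, adjusted p = 0.000198). TNFRSF10B, the TRAIL receptor DR5, had 3461.8 and 3942.6 with Nutlin and 1722.5 and 1936.3 with DMSO (0.99 ± 0.11, adjusted p = 0.000447). BBC3, which encodes the BH3-only protein PUMA, had 901.6 and 1110.8 with Nutlin and 417.6 and 525.4 with DMSO (1.01 ± 0.17, adjusted p = 0.00597). BAX, the effector of mitochondrial permeabilisation, rose by 0.64 and APAF1, the scaffold of the apoptosome, by 0.69. BCL2L1, whose main product BCL-XL protects cells from death, rose too, by 0.77, as did TP53I3 by 1.01 and EDA2R by 0.87. PMAIP1, which encodes NOXA, did not pass at 0.45. The list kept 6 to 9 calls with 1 library left out and 10 with all 15. BBC3 reached an adjusted p of 0.291 with all 15, 0.124 without Nutlin replicate 2 and 0.114 without DMSO replicate 1, and BAX lay between 0.0652 without Nutlin replicate 1 and 0.0772 without Nutlin replicate 2.

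DNA repair and the supply of deoxynucleotides are served by 15 of the targets, of which 5 passed, all higher, and the list's median was 0.42. RRM2B, the p53-inducible small subunit of ribonucleotide reductase, had 11395.1 and 11471.1 normalised reads with Nutlin and 5753.9 and 5169.1 with DMSO (1.06 ± 0.17, adjusted p = 0.00396). The damage sensors of nucleotide excision repair, DDB2 and XPC, rose by 0.62 and 0.69, the translesion polymerase gene POLH by 0.79 and the helicase gene ASCC3 by 0.61. PCNA, the sliding clamp of replication, had 8710.7 and 9595.9 with Nutlin and 6734.3 and 6866.8 with DMSO, a difference of 0.42 ± 0.11 that did not pass (adjusted p = 0.0831). RRM2B reached an adjusted p of 0.0682 without DMSO replicate 2 and 0.0601 without Nutlin replicate 2. XPC reached 0.0867 without DMSO replicate 1 and 0.0882 without Nutlin replicate 2, DDB2 0.0503 without DMSO replicate 1 and ASCC3 0.0506 without DMSO replicate 2.

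Of 25 targets in metabolism and autophagy 12 were called higher, with a median of 0.48. GLS2, the liver-type glutaminase, had 142.4 and 175.7 normalised reads with Nutlin and 18.2 and 28.2 with DMSO, a ratio of 6.86 (1.63 ± 0.14, adjusted p = 8.71e-05). C12orf5, which encodes the glycolysis regulator TIGAR, had 3689.0 and 3731.3 with Nutlin and 1925.3 and 1874.7 with DMSO (0.94 ± 0.09, adjusted p = 0.000133). The groups stood apart in both, as in all called genes. The hydrolase gene CMBL rose by 1.13, the carboxylesterase gene CES2 by 1.12, the lysosomal autophagy gene DRAM1 by 1.03 and FDXR, the gene of ferredoxin reductase, by 0.97. SCO2, an assembly factor of cytochrome oxidase, did not pass at -0.30. Of 52 further targets 32 were called higher, with a median of 0.71, among them EFNB1 (1.20), an ephrin ligand, INPP5D (1.20), an inositol phosphatase, and PSTPIP2 (1.14), an adaptor of the actin cytoskeleton. With all 15 libraries these lists kept 6 and 15 calls, and GLS2 lost its own (adjusted p = 0.639).

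Promoters of the genes called higher were searched for the p53 response element, in the sequence close to the start alone. The element is a pair of half-sites of 10 bases each, joined without a spacer, searched on both strands with its C and G core letters kept and up to 3 mismatches elsewhere. A promoter is a RefSeq window of 300 bases, 250 before to 50 after an annotated start (GRCh38.p14), and all starts of a gene were searched. A match was found for 18 of 202 genes called higher that have such a window (8.91%), 148 of 10577 genes that were not called (1.4%) and 373 of all 27303 genes of the promoter table (1.37%). None of 10 genes called lower had one. The genes called higher had 1.55 starts on average and those not called 1.47. FAS and ACTA2 share 1 element between opposite strands, so the 18 genes hold 17 elements. These settings were chosen after a stricter search. With up to 2 mismatches 10 of the 202 (4.95%) and 30 of the 10577 (0.284%) matched, and with only the first start of each gene as well, 3 (1.49%) and 22 (0.208%). A match describes letters and shows no binding. Sequence outside the windows was not searched, so a gene without a match may hold an element there.

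The best matches lie in DDB2, with 1 mismatch, and in MDM2, GRHL3, GLS2 and FAS, with 2 each and the largest differences among those. Their promoters are shown on the coding strand, with the matched 20 bases in capitals. The differences of these 5 genes ran from 0.62 for DDB2 to 1.73 for MDM2.
MDM2 promoter (chr12:68808767-68809066, plus strand): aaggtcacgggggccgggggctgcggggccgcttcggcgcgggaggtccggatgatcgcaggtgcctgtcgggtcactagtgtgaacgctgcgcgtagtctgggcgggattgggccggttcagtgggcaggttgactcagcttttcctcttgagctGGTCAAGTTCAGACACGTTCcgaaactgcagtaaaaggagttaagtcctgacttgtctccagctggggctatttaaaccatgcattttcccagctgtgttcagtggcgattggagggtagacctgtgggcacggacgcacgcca
GRHL3 promoter (chr1:24322790-24323089, plus strand): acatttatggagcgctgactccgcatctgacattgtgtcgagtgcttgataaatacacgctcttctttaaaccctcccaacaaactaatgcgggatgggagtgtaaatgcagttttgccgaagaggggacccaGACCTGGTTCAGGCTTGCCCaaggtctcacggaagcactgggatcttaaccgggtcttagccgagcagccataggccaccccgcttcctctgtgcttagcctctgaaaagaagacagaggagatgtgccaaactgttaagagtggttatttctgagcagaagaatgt
GLS2 promoter (chr12:56488112-56488411, minus strand): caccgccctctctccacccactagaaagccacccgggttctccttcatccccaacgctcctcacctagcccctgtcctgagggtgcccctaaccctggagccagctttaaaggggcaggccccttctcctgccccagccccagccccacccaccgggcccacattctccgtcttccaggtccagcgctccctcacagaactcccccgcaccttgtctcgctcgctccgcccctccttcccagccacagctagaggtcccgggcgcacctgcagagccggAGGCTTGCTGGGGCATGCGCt
FAS promoter (chr10:88991181-88991480, plus strand): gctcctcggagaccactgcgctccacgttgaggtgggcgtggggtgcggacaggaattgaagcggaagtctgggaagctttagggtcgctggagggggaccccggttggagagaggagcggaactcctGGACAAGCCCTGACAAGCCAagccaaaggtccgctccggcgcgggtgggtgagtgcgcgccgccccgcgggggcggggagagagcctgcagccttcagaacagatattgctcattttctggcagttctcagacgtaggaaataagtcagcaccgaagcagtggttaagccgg
DDB2 promoter (chr11:47214724-47215023, plus strand): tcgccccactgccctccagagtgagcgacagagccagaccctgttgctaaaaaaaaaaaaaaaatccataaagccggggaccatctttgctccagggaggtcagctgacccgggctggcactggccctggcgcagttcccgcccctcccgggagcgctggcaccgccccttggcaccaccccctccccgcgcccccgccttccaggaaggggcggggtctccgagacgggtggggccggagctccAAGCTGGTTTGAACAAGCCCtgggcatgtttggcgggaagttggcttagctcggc
The match began 94 bases before the start in MDM2, 117 before it in GRHL3, 122 before it in FAS and 5 before it in DDB2, and at base 30 of the transcript in GLS2. DDB2 was the 1 gene called higher with 1 mismatch, so every other match was less close, that of GDF15 with 3 mismatches among them.

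In the fit of 14 libraries limma called no change in the lists of cell cycle genes in blocked cells. Of 35 G1/S genes under E2F control limma called none. Their median was -0.16, and 5 were above 0, where 44.2% of all genes tested were. At an unadjusted p under 0.05 there were 8 of them, all lower, where 1186 of all 14257 genes tested were in either direction. Voom called 1 lower, the fit of 13 libraries 1 and the 4 libraries alone 2. None of 52 genes of G2 and mitosis passed, with a median of -0.06 and 15 above 0. There was 1 at an unadjusted p under 0.05 and none in voom. E2F1 had 1294.3 and 1448.9 normalised reads with Nutlin and 1437.5 and 1708.5 with DMSO (-0.19 ± 0.12, adjusted p = 0.883), and its groups overlapped. MCM2, a subunit of the replicative helicase, had 4364.4 and 4781.2 with Nutlin and 5273.9 and 5528.4 with DMSO (-0.24 ± 0.12, adjusted p = 0.674). CCNB1, the mitotic cyclin B1, had 4740.0 and 4421.6 with Nutlin and 5303.1 and 4763.0 with DMSO (-0.13 ± 0.15, adjusted p = 0.998). Both Nutlin libraries lay below both DMSO libraries in MCM2 and CCNB1, and neither gene passed. With 2 libraries a side such an order is frequent without any change. Limma made no call among 51 origin and replisome genes (median -0.08) or 48 of fork protection and checkpoint (-0.04). It made none among 43 replication-dependent histone genes (-0.07), whose near-identical copies make single values uncertain. Of these lists 10, 19 and 15 genes were above 0. At an unadjusted p under 0.05 there were 5, 4 and 3 in these lists, beside the same 1186 of 14257 genes, and voom made no call. Of 36 genes of nucleotide synthesis RRM2B was the 1 that passed. In S-phase cells, too, limma called none of the G1/S, G2 and mitosis, origin and replisome, or histone genes lower, with medians of -0.07 for both G1/S and G2 and mitosis. The non-released difference was above the S-phase one in 8 of the 35 G1/S genes and 23 of the 52 of G2 and mitosis, where 46.2% of all genes tested were. In asynchronous cells the same lists held genes called lower with Nutlin, 20 of the 35 G1/S genes, 6 of the 52 of G2 and mitosis, 12 of the 51 of origins and replisome and 9 of the 43 histone genes. The difference between the 2 responses did not pass for any of them. At an unadjusted p under 0.05 it did for 14, 13, 6 and 12, where it did for 261 of all 14257 genes tested. The non-released difference was above the asynchronous one in 34 of the 35 G1/S genes and 52 of the 52 of G2 and mitosis, where 52.3% of all genes tested were.

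**Figure D3:**
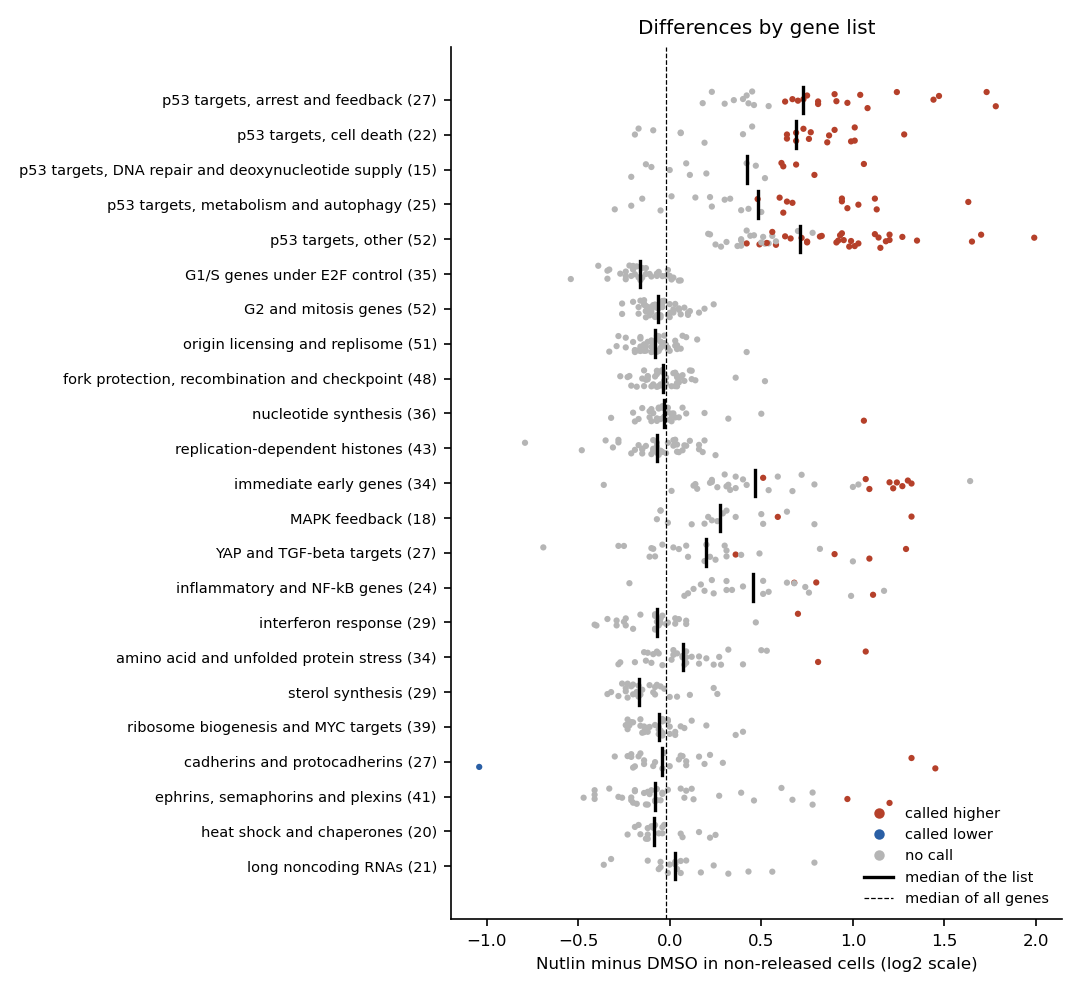
Nutlin minus DMSO difference in non-released cells (x axis, log2 scale) of each tested member of 23 gene lists (rows, number of members in brackets). The p53 target lists have medians (black bars) of 0.42 to 0.73 with most called genes (red) among them, and immediate early genes 0.46. G1/S genes have a median of -0.16, G2 and mitosis -0.06, and origins and replisome -0.08, each with a smaller share above 0 than all genes. The median of all genes is -0.02 (dashed line).

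Some genes that respond to growth factors and other stimuli rose as well. Of 38 listed immediate early genes, which are switched on within minutes by growth factors and stress, 34 could be tested. Of these 9 were called higher (26.5%, beside 1.80% of all genes tested), 33 were above 0 (beside 44.2% of all genes), and the median was 0.46 (beside -0.02). BTG2 and ATF3, among the 9, are also known p53 targets. FOS, the AP-1 subunit, had 403.8 and 355.9 normalised reads with Nutlin and 131.8 and 122.5 with DMSO (1.27 ± 0.18, adjusted p = 0.00154). DUSP5, a nuclear ERK phosphatase, had 453.3 and 474.6 with Nutlin and 198.9 and 118.0 with DMSO (1.32 ± 0.26, adjusted p = 0.0164). ARC, a gene of synaptic plasticity, had 985.4 and 1168.6 with Nutlin and 375.0 and 433.7 with DMSO (1.30 ± 0.20, adjusted p = 0.00281). Both Nutlin libraries lay above both DMSO libraries in each, as the calls nearly ensure. FOSL1 and MAFF, partners in AP-1 type dimers, rose by 1.20 and 1.22, the stress factor ATF3 by 1.07, CYR61 by 1.09 and the survival gene MCL1 by 0.51, and BTG2 was the other. EGR1, a zinc finger factor, had 564.4 and 257.3 with Nutlin and 102.6 and 77.6 with DMSO. Its difference of 1.64 ± 0.44 did not pass (adjusted p = 0.104), the Nutlin libraries being far from each other. JUN, with 2509.8 and 2622.7 with Nutlin against 2184.3 and 2509.2 with DMSO, differed by 0.13, and MYC by 0.36, and neither passed. The list is sensitive to the libraries used, with 7 calls from all 15 and 15 from 13. Leaving out 1 of the 4 left 2 to 5. FOS passed in each of those fits (adjusted p up to 0.0287), whereas DUSP5 reached 0.235 without DMSO replicate 2, 0.105 without Nutlin replicate 1 and 0.166 without Nutlin replicate 2, and ARC 0.0525 without DMSO replicate 1 and 0.0601 without Nutlin replicate 2.

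Neighbouring lists held fewer calls, to be read beside the 1.80% of all genes called higher. Of 18 genes of MAPK feedback, DUSP5 and DUSP2 (0.59) passed (11.1%). In the limma fit of all 15 libraries DUSP2 did not pass (adjusted p = 0.173). Of 27 YAP and TGF-beta targets 4 passed (14.8%), with a list median of 0.20. CYR61, a matricellular gene, had 3587.0 and 3808.4 normalised reads with Nutlin and 1739.0 and 1679.6 with DMSO (1.09 ± 0.20, adjusted p = 0.0118). NUAK2 (0.90), a kinase related to AMPK, and AMOTL2 (0.36), a YAP inhibitor, also passed, while CTGF, at 1.00 ± 0.27, did not (adjusted p = 0.0984). None of the 4 passed in limma with any 1 of the 4 non-released libraries left out, when the adjusted p of CYR61 lay between 0.0758 without Nutlin replicate 1 and 0.145 without Nutlin replicate 2. Of 24 inflammatory and NF-kB genes 3 passed (12.5%), with a median of 0.45, all of them known regulators of that pathway, BIRC3 (1.11), NFKBIZ (0.80) and TNFAIP3 (0.68). IL8 had 81.8 and 126.8 with Nutlin and 34.7 and 26.9 with DMSO, and did not pass (0.99 ± 0.35, adjusted p = 0.305). BIRC3 and NFKBIZ reached 0.145 and 0.116 without Nutlin replicate 2, and TNFAIP3 0.276.

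Genes for ligands of the EGF receptor family were examined after their values had been seen. HBEGF had 985.4 and 1199.8 normalised reads with Nutlin and 492.6 and 468.3 with DMSO (1.09 ± 0.21, adjusted p = 0.0136). EREG had 131.2 and 226.9 with Nutlin and 58.4 and 52.0 with DMSO (1.12 ± 0.22, adjusted p = 0.0165). TGFA, which is also a known p53 target, had 868.2 and 1075.9 with Nutlin and 401.0 and 391.4 with DMSO (1.18 ± 0.25, adjusted p = 0.0254). All 3 were higher in both Nutlin libraries, which their calls nearly ensure. AREG rose as well, by 0.76, from few reads, at 27.3 and 28.9 with Nutlin and 7.9 and 3.2 with DMSO. These calls rest on all 4 libraries. Without Nutlin replicate 2 the adjusted p was 0.21 for HBEGF, 0.279 for EREG, 0.301 for TGFA and 0.265 for AREG, without DMSO replicate 1 it was 0.111, 0.114, 0.181 and 0.0901, and without DMSO replicate 2 it was 0.132, 0.157, 0.183 and 0.381. Without Nutlin replicate 1 EREG passed (0.016), and HBEGF (0.05), TGFA (0.08) and AREG (0.186) did not. In the fit of all 15 libraries HBEGF (0.0574) and AREG (0.0608) did not pass. NRG1 (0.50), EGF (-0.06) and NRG3 (-0.07) did not pass. Over all genes tested 1.80% were called higher.

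The remaining lists held little. TRIM22, itself a p53 target, was the 1 call among 29 interferon genes, whose median was -0.07. SESN2 and ATF3 were the calls among 34 genes that respond to amino acid shortage or unfolded proteins (median 0.08). None of 29 sterol synthesis genes (median -0.17), 39 ribosome biogenesis genes and MYC targets (-0.06), 20 chaperone genes (-0.08) or 21 long noncoding RNAs (0.03) passed in limma. At an unadjusted p under 0.05 there were 3, 5, 0 and 3, where 1186 of all 14257 genes tested were. Voom called 1 of the long noncoding RNAs and none of the rest. EFNB1 and EPHA2 (0.97), an ephrin receptor gene, passed among 41 ephrin, semaphorin and plexin genes. Of the 257 genes called higher 159 stood on no list, and the riboflavin transporter gene GPR172B, CSMD3 and TFEC were those with the largest differences.

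Few genes fell. BMF, a BH3-only gene, had 109.0 and 57.1 normalised reads with Nutlin and 255.0 and 213.0 with DMSO (-1.13 ± 0.24, adjusted p = 0.0264). PCDH18, a protocadherin, had 122.2 and 98.6 with Nutlin and 304.7 and 255.3 with DMSO (-1.04 ± 0.13, adjusted p = 0.000669). GCNT1, an enzyme of O-glycan branching, had 319.0 and 290.7 with Nutlin and 583.4 and 558.8 with DMSO (-0.80 ± 0.11, adjusted p = 0.0017). Both Nutlin libraries lay below both DMSO libraries in each. The membrane oestrogen receptor gene GPER fell by 0.86, the calcium channel subunit gene TMEM37 by 0.83, the Wnt receptor gene FZD2 by 0.74, the secreted protein gene CRISPLD1 by 0.63 and the ubiquitin ligase adaptor gene SPSB4 by 0.62. MYCN and the growth factor gene FGF9 fell by 0.61 and 0.58 at low levels. MYCN had 4.0 and 3.0 normalised reads with Nutlin, close to the limit of 3 reads, and 20.5 and 15.4 with DMSO. The other 7 were KCTD15, TNIK, PDGFRA, CBX2, CBX8, PMP22 and TGFBR3, from -0.39 to -0.55. CBX2 and CBX8, readers of Polycomb marks, fell by 0.50 and 0.53. PCDH18 and GCNT1 passed with any 1 library left out (adjusted p up to 0.0216 and 0.0423). The others did not, and 2 to 4 falls in all passed in those fits. BMF reached 0.394 without Nutlin replicate 2, GPER 0.0748 without DMSO replicate 2, and FZD2 and CRISPLD1 0.301 and 0.2 without Nutlin replicate 2. Of the BH3-only genes BMF and BBC3 thus passed in opposite directions.

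The genes that Nutlin raised in blocked cells were mostly raised in the other states too. The states have separate DMSO libraries but share 1 estimate of spread per gene, and their time in Nutlin may differ. In S-phase cells 3.27% of genes passed and in asynchronous cells 3.07%. Of the 257 genes, 250 differed upward in S-phase cells and 255 in asynchronous cells, with medians of 0.80 and 0.77. Called higher were 211 in S-phase (82.1%, where 2.88% of all genes were) and 198 in asynchronous cells (77.0%, where 2.23% were), 181 in both and 29 in neither. The other way round, 51.3% of the genes called higher in S-phase cells and 62.3% of those in asynchronous cells were called higher in blocked cells. Of the 17 genes that fell, 4 were called lower in S-phase (where 0.386% of all genes were) and 9 in asynchronous cells (0.835%), and 7 in neither, with medians of -0.23 and -0.35.

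No gene passed a test of the difference between the non-released and the S-phase response in limma (0%, lowest adjusted p = 0.767), with 442 at an unadjusted p under 0.05, and none with voom, with 471. None passed for the non-released against the asynchronous response in limma (0%, lowest adjusted p = 0.0617), with 261 at an unadjusted p under 0.05, and 1 with voom, with 331. That gene is TP53INP1. It rose by 1.04 in non-released, 1.53 in S-phase and 2.15 in asynchronous cells. With Nutlin it had 2866.2 and 2739.9 normalised reads in non-released, 1698.5 and 1870.4 in S-phase and 1554.5, 1357.4 and 1383.3 in asynchronous cells. With DMSO it had 1320.7 and 1348.6, then 604.7, 643.1 and 507.3, and then 271.1 and 290.0 in asynchronous replicates 1 and 2. Among the libraries in the fit its level was thus highest in blocked cells with either treatment, and its difference was smallest there. Voom gave the difference an adjusted p of 0.00993, and with 13 libraries BTG2 (0.00297) and SESN1 (0.011) passed beside it (0.00297).

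The differences of CDKN1A, PVRL4 and BTG2 were ordered like that of TP53INP1, smallest in non-released and largest in asynchronous cells. PVRL4 differed by 1.99 in non-released, 2.55 in S-phase and 2.79 in asynchronous cells. Their levels with Nutlin were not all highest in blocked cells. PVRL4 had 2038.3 and 2345.4 normalised reads with Nutlin in non-released and 1985.0 and 2589.5 in S-phase cells. CDKN1A had 15310.3 and 15847.5 normalised reads with Nutlin in non-released, 14907.4 and 18431.6 in S-phase and 11606.6 to 12238.6 in asynchronous cells, and with DMSO 5506.0 and 5870.4, 3432.5 to 4597.7, and 2740.6 and 2772.6. Its differences were 1.44, 2.00 and 2.10. BTG2 had 3842.5 and 3643.0, 3387.5 and 3587.6, and 3098.9 to 3445.1 with Nutlin, and 1533.8 and 1570.6, 595.5 to 898.8, and 606.2 and 637.1 with DMSO, with differences of 1.24, 2.15 and 2.28. Among the libraries in the fit the DMSO levels of both genes were highest in blocked cells, whereas the Nutlin levels lay closer together. Of the 27 arrest and feedback targets 6 had a larger difference in non-released than in S-phase cells, where 46.2% of all genes did, and 8 a larger one than in asynchronous cells, where 52.3% did. Asynchronous replicate 3 with DMSO was set apart by its p53 targets, so the asynchronous values without it are no independent test of them.

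Immediate early genes, by their median, differed most in non-released cells. The median difference of the 34 genes was 0.46 in non-released, 0.08 in S-phase and 0.17 in asynchronous cells. Of them 30 had a larger difference in non-released than in S-phase cells, where 46.2% of all genes tested did. A larger one than in asynchronous cells was seen in 27, where 52.3% of all genes did. FOS differed by 1.27, 0.24 and 0.16. With Nutlin it had 403.8 and 355.9 normalised reads in non-released, 181.4 and 161.2 in S-phase and 65.2 to 96.4 in asynchronous cells, and with DMSO 131.8 and 122.5, 129.7 to 152.3, and 44.2 and 90.0. FOS was thus highest in the blocked Nutlin libraries, and the unadjusted p of the difference was 0.000806 against S-phase and 0.000452 against asynchronous cells. DUSP5 and MAFF had another pattern. DUSP5 had 453.3 and 474.6 with Nutlin in non-released, 668.5 and 775.6 in S-phase and 536.2 to 931.3 in asynchronous cells, and with DMSO 198.9 and 118.0, 551.0 to 711.9, and 339.7 and 607.3. Here the blocked DMSO libraries were the lowest of all, and the Nutlin level in blocked cells was not above that in the other states. MAFF was likewise lowest in blocked DMSO cells, at 205.2 and 174.5, and had 456.3 and 573.9 with Nutlin. ARC and ATF3, by contrast, had near-equal differences in the 3 states, 1.30, 1.05 and 1.34 for ARC and 1.07, 1.18 and 1.18 for ATF3. In the fit of 14 libraries no difference between states passed for any gene of this list, and BTG2 passed with 13 libraries, as given above.

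**Figure D4:**
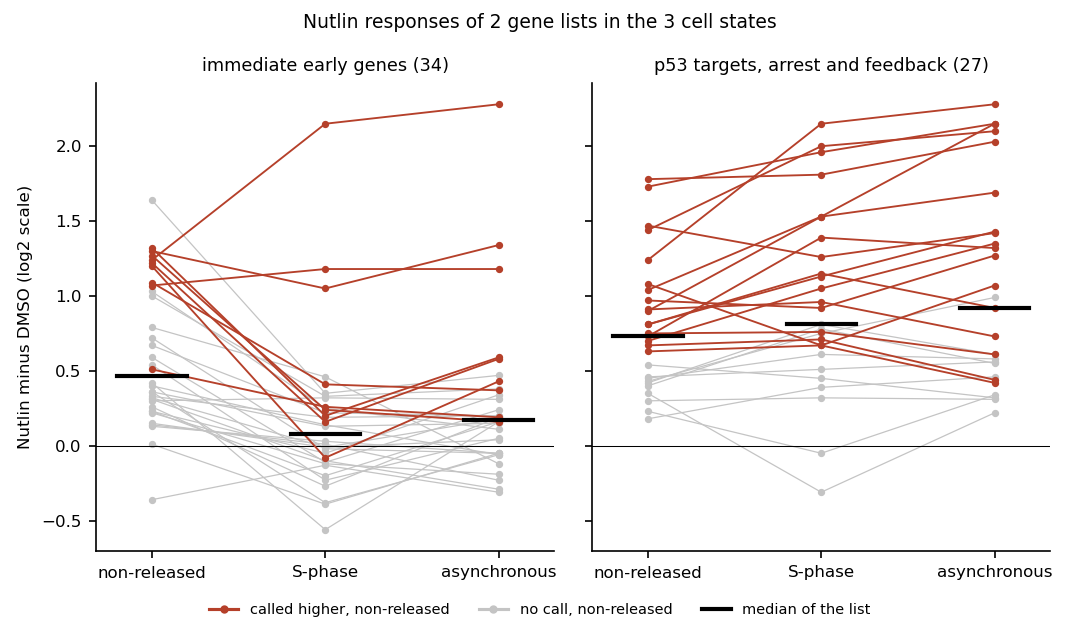
Nutlin minus DMSO difference (y axis, log2 scale) in non-released, S-phase and asynchronous cells (x axis) for 34 immediate early genes (left) and 27 arrest and feedback targets of p53 (right), 1 line per gene, red where called higher in non-released cells. The black medians are 0.46, 0.08 and 0.17 on the left and 0.73, 0.81 and 0.92 on the right.

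Of the genes that fell, BMF and GCNT1 are given across the states. BMF had 109.0 and 57.1 normalised reads with Nutlin in non-released, 27.3 and 30.6 in S-phase and 5.6 to 23.5 in asynchronous cells, and with DMSO 255.0 and 213.0, 41.5 to 82.0, and 14.5 and 26.7. GCNT1 had 319.0 and 290.7, 261.9 and 216.1, and 132.0 to 144.7 with Nutlin, and 583.4 and 558.8, 235.5 to 283.4, and 229.7 and 228.3 with DMSO. In both, the blocked DMSO libraries were the highest of all, and the blocked Nutlin libraries lay above the S-phase and asynchronous Nutlin libraries. BMF differed by -1.13, -0.55 and -0.22 in non-released, S-phase and asynchronous cells, and GCNT1 by -0.80, -0.12 and -0.57. The blocked DMSO libraries enter both the fall and this order of levels.

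The sources used here do not state whether reads were counted by strand. Exons of 78 of the 269 called genes found in GENCODE v29 overlap exons of a gene on the opposite strand, CDKN1A, MDM2, GLS2, BMF, TNFRSF10B, XPC and CES2 among them. If reads were not counted by strand, those from the 2 strands cannot be told apart there. The same count was not made over all genes tested.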

How the data were processed

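The authors deposited 1 table of variance-stabilised expression on a log2 scale for 15 libraries of total RNA. The submitters' processing notes name the build hg19 and the tools DESeq2 1.10.1, HTSeq, TopHat 0.9 and CASAVA 1.8.2, with no settings. The deposited log2 values were converted back to reads over a size factor, with the lowest value, 4.859, as 0 reads. At least 99.88% of values came out within 0.05 of a whole read in the non-released libraries, and 3 reads are 0.128 to 0.196 CPM there.

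Genes at least 1 unit above the lowest value in 2 libraries were tested with limma 3.58.1 (R 4.3.3) on the log2 values. The fit had 1 mean per group over 14 libraries and a mean-variance trend. Tests were two-sided, with Benjamini-Hochberg adjustment over all genes tested and a threshold of 0.05. All p-values not named otherwise come from it. The count tests planned for raw counts were not run, as the deposited values are log2, nor were they run on the recovered reads. The 14 libraries, gene lists and tests were chosen with earlier results of these data known. The scripts were tested on simulated data. Named genes are CDKN1A and MDM2, the 20 largest rises and 10 largest falls among called genes, and up to 4 called members of smallest p per list. Others were named after their values were seen, as background or contrast. Alternatives were other sets of libraries, filters, scalings and voom on recovered reads, and each non-released library left out. 28 gene names had become dates, and 2 names occurred 2 times. Results for a few genes are not reported here.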

Additional observations from a re-analysis of the deposited data

Results flagged for a closer look

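The library labelled DMSO asynchronous replicate 3 had 7826.1 normalised reads of KRT19, a keratin of simple epithelia, where every other library had at most 33.9. It was singled out because it lies outside the comparison of non-released cells. CDH1, the epithelial cadherin, had 3505.5 normalised reads there and at most 98.9 elsewhere. The source of these reads was not tested.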

How the results depend on the processing

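Nutlin against DMSO in non-released cells gave 274 genes, 257 higher and 17 lower. All 15 libraries gave 131, 125 and 6, 13 libraries gave 459, 399 and 60, and the 4 compared alone gave 623, 510 and 113. With 1 of the 4 left out there were 81 to 125, 79 to 121 higher and 2 to 4 lower. The lone library of a group was then assumed to vary like the other groups. Voom moved the count of lower genes, to 50 with TMM scaling and 46 with the deposited size factors. Replicates of the same number deviated together (r = 0.326 in non-released, 0.367 in S-phase and 0.402 in asynchronous cells), but 2 pairs are too few to show pairing. With the replicate number as a block there were 526 calls, 446 higher and 80 lower. The difference between the non-released and asynchronous responses, called for 0 genes, was called for 3 with 13 libraries, and for 1 each with voom under TMM, voom under size factors, log2(normalised reads + 1), centring and the block. The cause of these changes was not tested. Over the 55 named genes no direction reversed in the refits, which kept the call 712 times and lost it 106 times, 20 of those with all 15 libraries. The planned edgeR and DESeq2 fits were not run, and voom was the test run on the recovered reads. Low genes such as MYCN, FGF9 and AREG rest on few reads, and their differences are compressed.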

Other observations

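MALAT1, an abundant nuclear RNA, separated the non-released libraries by replicate number and not by treatment. It had 43467.5 normalised reads in Nutlin replicate 1 and 17921.5 in Nutlin replicate 2, against 41649.2 in DMSO replicate 1 and 20191.6 in DMSO replicate 2. NEAT1, the scaffold RNA of paraspeckles, had 4019.1 and 2224.5 with Nutlin and 1819.5 and 1593.7 with DMSO, and did not pass in limma (adjusted p = 0.479).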
